A study of Mus musculus with 2 samples.

Results

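The 9 hairpin genes of the miR-17 to miR-92 cluster on chromosome 14 and of the miR-106b to miR-25 cluster in an intron of Mcm7 were taken by their GENCODE M21 symbols from 2202 microRNA genes counted in mouse hippocampus. The data came from 2 microRNA-seq libraries of hippocampal tissue from adult male mice of the strain 5xFAD/CAST, aged 8 to 10 months. 5xFAD mice model amyloid deposition through transgenes driven by the neuronal Thy1 promoter, and CAST is a wild-derived strain. By their labels the libraries are biological replicates 1 and 2, with a tissue record each and a shared donor record. The labels do not say which layer of the hippocampus was taken. There was 1 group and no control, so no effect of genotype, transgene or age was measured, and the spread between the libraries may be technical. In bulk tissue, fewer cells of a type and less RNA per cell cannot be told apart.

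Both clusters are polycistronic, which means that several hairpins are cut from a single primary transcript. Their microRNAs are known to promote cell cycle entry and survival by lowering targets such as the pro-apoptotic gene Bcl2l11 and the cell cycle inhibitor Cdkn1a, and the chromosome 14 cluster is a direct target of Myc. Roles in the proliferation and differentiation of neural progenitors are known for both clusters. A microRNA recognises its targets mainly through its seed, bases 2 to 8, and the 9 genes fall into 4 seed groups.

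The mature sequences below are those of the arm generally held to be the main product of each hairpin, from RefSeq (GRCm38.p6), where all 9 genes had an entry. They are shown because the seeds define the groups and the few differing bases decide which members a read can be told apart from. The counts are per hairpin gene and do not separate its arms, so a gene's reads are placed in the seed group of this arm whichever arm they came from. Capitals mark the seed, and the first set is the miR-17 seed group.
miR-17-5p: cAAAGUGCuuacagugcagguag
miR-20a-5p: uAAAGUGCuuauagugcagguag
miR-106b-5p: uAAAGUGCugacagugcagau
miR-93-5p: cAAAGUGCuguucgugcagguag
The miR-18 seed differs from it at a single base, and miR-18a-5p was the only member with it.
miR-18a-5p: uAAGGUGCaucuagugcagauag
The miR-19 seed group holds both hairpins of the chromosome 14 cluster that were nearly without reads.
miR-19a-3p: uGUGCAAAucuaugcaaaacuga
miR-19b-3p: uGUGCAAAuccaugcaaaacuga
The miR-92 seed group joins the last hairpin of each cluster.
miR-92a-3p: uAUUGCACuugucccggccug
miR-25-3p: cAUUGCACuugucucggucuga

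Counted from 1 at the 5′ end, miR-20a-5p differs from miR-17-5p by C1U and C12U, both outside the seed. miR-93-5p differs from miR-17-5p by U10G, A11U, C12U and A13C. miR-106b-5p differs from miR-17-5p by C1U, U10G and G20A over the 21 bases that both have. miR-19b-3p differs from miR-19a-3p by U11C alone. miR-25-3p differs from miR-92a-3p by U1C, C14U and C18U over 21 bases.

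The miR-19b and miR-92a sequences are each encoded by 2 genes. Mir19b-1 and Mir19b-2 of the paralogue cluster on the X chromosome share a stretch of 25 bases around the whole mature sequence. Mir92-1 and Mir92-2 share 22 bases.
Shared by Mir19b-1 and Mir19b-2: gcugugcaaauccaugcaaaacuga
Shared by Mir92-1 and Mir92-2: guauugcacuugucccggccug
A read that lies wholly within such a stretch fits both places, and the deposited tables give a read of more than 1 place to no gene. The counts of Mir19b-1 and Mir92-1, and those of Mir19b-2 and Mir92-2, are therefore uncertain. The other 7 members share no stretch of 18 bases with a microRNA gene at another place.

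The chromosome 14 cluster spans 836 bases (mm10 chr14:115043671-115044506, plus strand), and its 6 hairpins lie in exon 2 of the noncoding host transcript Mir17hg. In transcription order they are Mir17, Mir18, Mir19a, Mir20a, Mir19b-1 and Mir92-1, with gaps of 35 to 96 bases. The Mcm7 cluster spans 498 bases (chr5:138165321-138165818, minus strand) in the order Mir106b, Mir93 and Mir25. All 3 lie in intron 13 of an annotated coding transcript of Mcm7, which encodes a subunit of the replicative helicase. Mir93 and Mir25 also lie in an exon of a noncoding Mcm7 transcript that retains this intron.

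Replicate 1 held 3421977 reads assigned to microRNA genes and replicate 2 held 2820468. Levels are given as CPM, reads per 1000000 assigned reads. No read at all still allows a level of 0.877 CPM in replicate 1 or 1.06 CPM in replicate 2. This floor is 3 reads, close to the one-sided 95% Poisson limit for a count of 0, for counting error only. Reads matching more than 1 place made up 41.6% and 38.2% of all reads. The tissue label was checked against marker microRNAs. The summed level of 18 neuron-enriched genes was 34150 and 35989 CPM, with 14 detected and Mir124a-2 and Mir124a-3 at 0. The 3 red blood cell genes summed to 47.6 and 59.9 CPM, and the 8 muscle and liver genes to 54.35 and 54.96 CPM with Mir1a-1, Mir133a-2 and Mir133b at 0. These 5 genes at 0 each share 20 bases with other microRNA genes, so their reads may have gone to no gene, and their zeros are uncertain. Mir1a-2 and Mir133a-1, each with 1 read in replicate 1 and 0 in replicate 2, share sequence too. The sum of the muscle and liver genes is therefore uncertain.

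A minimum of 10 reads in each library was met by 7 of the 9 members, called detected here, and by 17.7% of all 2202 microRNA genes. Together the 9 genes took 0.303% of assigned reads in replicate 1, with an exact Clopper-Pearson 95% interval of 0.298 to 0.309, and 0.293% in replicate 2, with an interval of 0.286 to 0.299. The Mcm7 cluster held 5088 and 4722 of these reads, or 1487 and 1674 CPM in replicates 1 and 2. The chromosome 14 cluster held 5296 and 3529 reads, or 1548 and 1251 CPM. Which cluster was higher depended on the library, with a log2 ratio of the Mcm7 cluster to the chromosome 14 cluster of -0.058 in replicate 1 and 0.42 in replicate 2. With the uncertain Mir19b-1 and Mir92-1 left out of the chromosome 14 sum, the log2 ratio was 0.26 in replicate 1 and 1.14 in replicate 2. That step could only raise the ratio, so it does not show which cluster was higher. Reads of these genes that fit more than 1 place stayed uncounted.

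**Figure D1:**
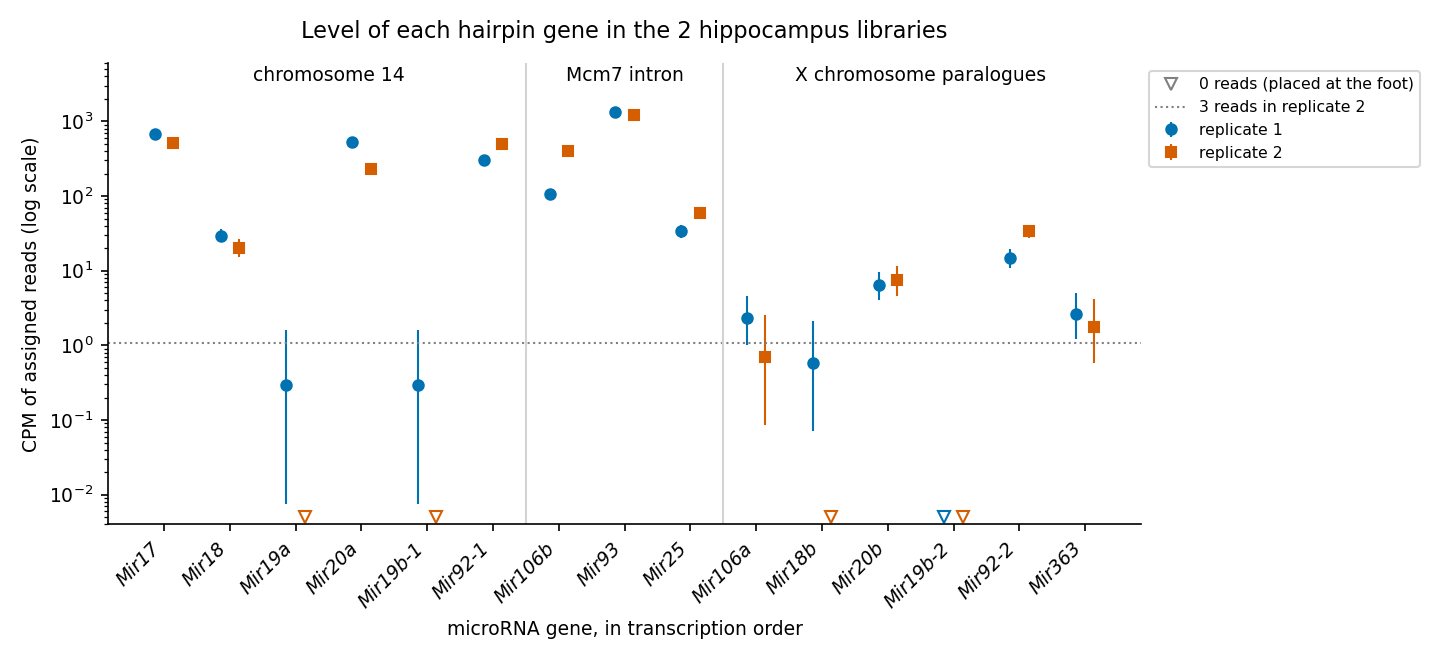
Level of each hairpin gene in CPM of assigned reads, on a log axis, for the 9 genes and the 6 paralogues on the X chromosome, with circles for replicate 1, squares for replicate 2 and bars for exact Poisson 95% intervals. Mir93 stands highest in both libraries, Mir19a and Mir19b-1 have 1 read in replicate 1 and none in replicate 2, and no X chromosome gene exceeds 33.7 CPM.

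Mir93 had the most assigned reads of the members in both libraries. It had 4605 reads (1346 CPM, exact Poisson 95% interval 1307 to 1385) in replicate 1 and 3436 reads (1218 CPM, 1178 to 1260) in replicate 2. Its mean of 1282 ± 90.1 CPM (SD, n = 2) placed it 80th of the 2202 genes. Mir17 had the most assigned reads of the chromosome 14 cluster, 2340 (684 CPM) in replicate 1 and 1442 (511 CPM) in replicate 2. It ranked 114th with 598 ± 122 CPM. Mir93 exceeded Mir17 by 1.97-fold in replicate 1 and 2.38-fold in replicate 2, and the ranges of the genes over the libraries did not overlap.

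Mir20a and Mir106b completed the miR-17 seed group, and they differed most between the libraries. miR-17, miR-20a and miR-106b are known from cell culture to lower the amyloid precursor protein. Mir20a had 1801 reads (526 CPM) in replicate 1 and 645 reads (229 CPM) in replicate 2, a mean of 377 ± 210 CPM. Mir106b had 368 reads (108 CPM) in replicate 1 and 1118 reads (396 CPM) in replicate 2, a mean of 252 ± 204 CPM. Mir20a was thus 4.89 times Mir106b in replicate 1 and 0.577 times Mir106b in replicate 2, so their order was not the same in both libraries.

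Together these 4 genes took 87.8% of the assigned reads of the 9 members in replicate 1 and 80.5% in replicate 2. Reads confined to the shared stretches of Mir19b-1 and Mir92-1 went to no gene, so these shares are uncertain. Mir18, the single member with the miR-18 seed, had 101 reads (29.5 CPM) and 57 reads (20.2 CPM) in replicates 1 and 2. It lies between Mir17 and Mir19a on the same transcript. Mir17 exceeded it 23.2-fold in replicate 1 and 25.3-fold in replicate 2.

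Both members with the miR-19 seed were nearly without reads. miR-19 is known as the component of the cluster that drives lymphoma growth in mice. Mir19a and Mir19b-1 each had 1 read in replicate 1 and 0 in replicate 2, where a count of 0 allows up to 1.06 CPM, while Mir17, Mir20a and Mir92-1 on the same transcript lay between 229 and 684 CPM. The Mir19b-1 count covers reads that fit that hairpin alone, since its mature sequence is also that of Mir19b-2, which had 0 reads in both libraries. The sequence of miR-19a-3p occurs in no other annotated microRNA hairpin, and among other M21 transcripts only in Mir17hg. Copies elsewhere in the genome were not searched, and the sources used here do not give how the authors' alignment treated reads that match another place but for 1 base. Whether miR-19 RNA was scarce in the tissue or its reads were left without a gene name was not tested.

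The miR-92 seed members were unequal, with Mir92-1 above Mir25. miR-92a is known for restraining vessel growth in mice. Mir92-1 had 1052 reads (307 CPM) in replicate 1 and 1385 reads (491 CPM) in replicate 2, a mean of 399 ± 130 CPM that leaves out reads confined to the 22 bases shared with Mir92-2. Mir25 had 115 reads (33.6 CPM) and 168 reads (59.6 CPM), a mean of 46.6 ± 18.4 CPM. Mir92-1 exceeded Mir25 by 9.15-fold in replicate 1 and 8.24-fold in replicate 2.

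By mean CPM the order was Mir93, Mir17, Mir92-1, Mir20a, Mir106b, Mir25, Mir18 and then Mir19a and Mir19b-1, which were equal. Of these neighbours, Mir92-1 and Mir20a, as well as Mir20a and Mir106b, changed places between the libraries and had overlapping ranges. Mir92-1 likewise exceeded Mir106b in both libraries, 2.86-fold and 1.24-fold, but their ranges overlapped. The other neighbours, apart from the equal last pair, kept their order and their ranges did not overlap. A small RNA read covers a whole microRNA, so levels were not divided by the length of the hairpins, which is 80 to 107 bases.

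The proportions of the large hairpins within a cluster differed between the libraries beyond counting error, a comparison that needs no scaling of one library to the other. Mir20a made up 34.0% of the chromosome 14 cluster's reads in replicate 1, with an exact 95% interval of 32.7 to 35.3, and 18.3% in replicate 2, with an interval of 17.0 to 19.6. Mir92-1 made up 19.9% (18.8 to 20.96) and 39.2% (37.6 to 40.9). As counted, Mir17 was closest to constant of the 3 large components, at 44.2% (42.8 to 45.5) and 40.9% (39.2 to 42.5). The Mir92-1 count leaves out reads confined to the stretch shared with Mir92-2. Every share of this cluster, and the near constancy of Mir17, is therefore uncertain. The ratio of Mir17 to Mir20a, which does not use that count, was 1.30 in replicate 1 and 2.24 in replicate 2. The intervals of Mir18, at 1.91% (1.56 to 2.31) and 1.62% (1.23 to 2.09), overlapped, as did those of Mir19a and Mir19b-1.

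In the Mcm7 cluster Mir93 held 90.5% of the reads in replicate 1 (89.7 to 91.3) and 72.8% in replicate 2 (71.5 to 74.0). Mir106b held 7.23% (6.54 to 7.98) and 23.7% (22.5 to 24.9), and Mir25 held 2.26% (1.87 to 2.71) and 3.56% (3.05 to 4.13). Mir93 was the largest component of its cluster in both libraries.

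**Figure D2:**
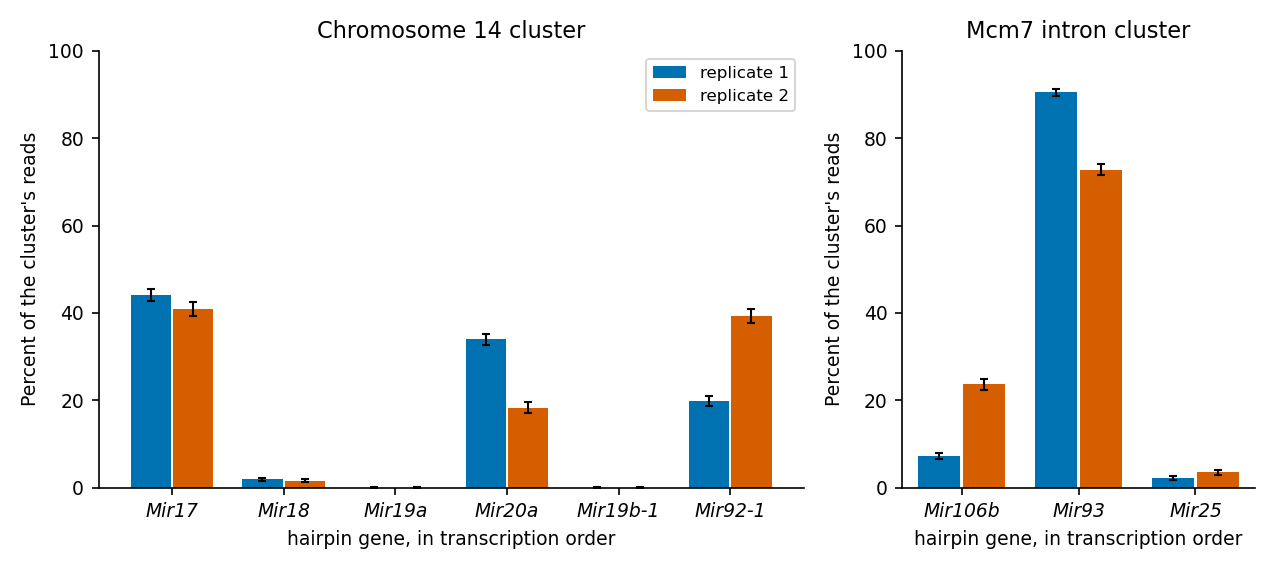
Percent of each cluster's reads taken by each hairpin gene, in transcription order, with exact Clopper-Pearson 95% intervals and replicate 1 to the left of replicate 2. Mir20a and Mir92-1 exchange their places between the libraries, and Mir106b has 7.23% of its cluster's reads in replicate 1 and 23.7% in replicate 2. Shares of the chromosome 14 cluster are uncertain, since reads confined to the stretch shared by Mir92-1 and Mir92-2 are counted for no gene.

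The 2 libraries were then compared gene by gene over all 389 detected genes, with the log2 ratio of replicate 1 over replicate 2 on library sizes scaled by TMM. A two-sided exact binomial test with Benjamini-Hochberg adjustment over those genes asked whether the counts differed by more than counting error. It compares these 2 libraries and no condition. All 7 detected members passed it, where 67.6% of detected genes did, so the count is in the range of a test that most genes pass. Of the members, 4 were higher in replicate 1, against 33.7% of detected genes, and 3 were lower in replicate 1, against 33.9%.

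Mir106b lay furthest apart, with a log2 ratio of -1.78 (exact 95% interval -1.96 to -1.61; binomial adjusted p = 9.3e-109), or 3.44-fold lower in replicate 1. Of the 389 detected genes, 22 were further apart than Mir106b. Mir20a was 2.46-fold higher in replicate 1 (log2 ratio 1.30, 1.17 to 1.43; binomial adjusted p = 1.9e-95). These were the 2 members at least 2-fold apart, among 7 detected, where 22.6% of detected genes were at least 2-fold apart. Mir93 lay closest to 0, with a log2 ratio of 0.24 (0.18 to 0.31).

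The remaining detected members differed by 1.43-fold to 1.65-fold. Mir17 (log2 ratio 0.52) and Mir18 (0.65, binomial adjusted p = 0.011) were higher in replicate 1, and Mir92-1 (-0.58) and Mir25 (-0.73, binomial adjusted p = 5.6e-05) were lower in replicate 1. Hairpins of a single transcript thus lay on both sides of 0 in each cluster. The median distance from 0 was 0.65 over the 7 detected members and 0.52 over all detected genes.

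With the spread between the libraries as the error (edgeR exact test, common biological coefficient of variation 0.41), 0 of the 7 members and 2 of 389 genes (0.514%) passed. The adjusted p of the members lay between 0.78 and 1, and Mir106b alone of the members had an unadjusted p under 0.05. That error comes from the same 2 libraries, so a p above the threshold does not show that the libraries were alike.

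**Figure D3:**
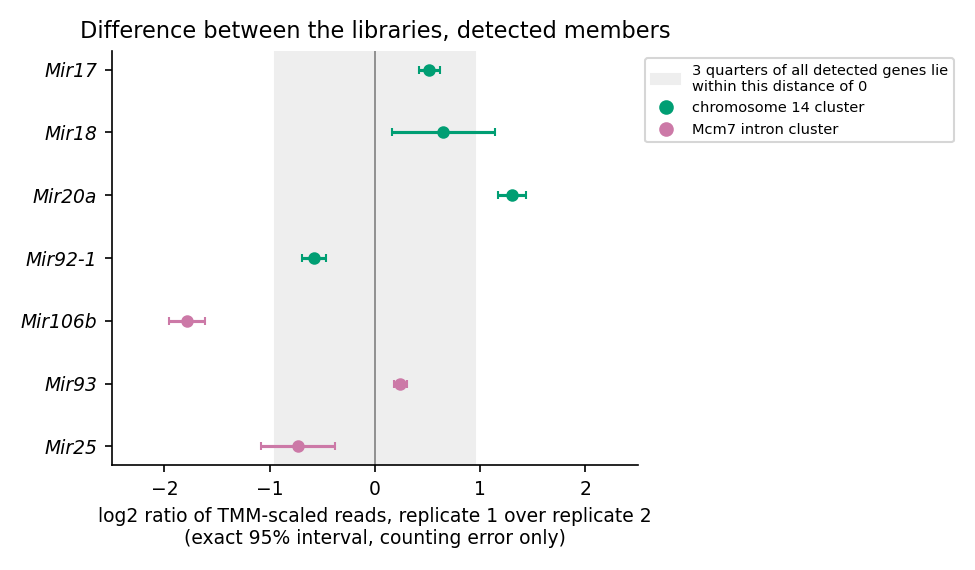
Log2 ratio of TMM-scaled reads of replicate 1 over replicate 2 for the 7 detected members, with exact 95% intervals for counting error, and a grey band that reaches 0.95 to either side of 0, the distance within which 3 in 4 detected genes lay. Mir20a and Mir106b lie outside the band in opposite directions, and both clusters have members on both sides of 0.

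**Figure D4:**
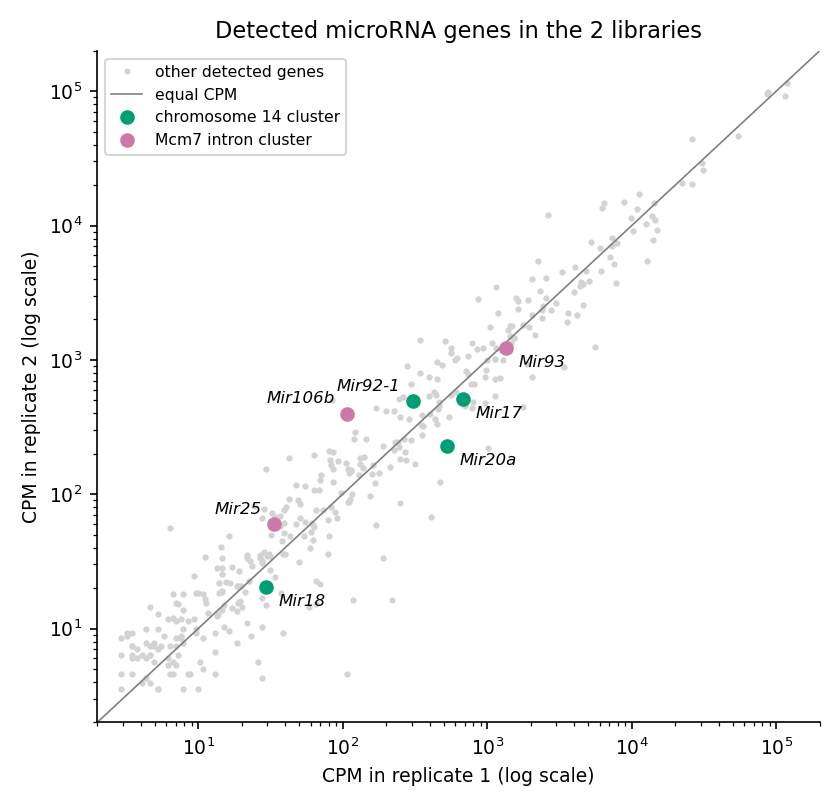
CPM in replicate 1 against CPM in replicate 2 for the 389 detected genes, on log axes, with the 7 detected members in colour and a line of equal CPM. The CPM plotted is not scaled by TMM. By this measure Mir93, Mir17 and Mir18 are the members nearest the line, and Mir106b, at 108 and 396 CPM, lies farthest from it.

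The paralogue cluster on the X chromosome, known as the miR-106a to miR-363 cluster, had few reads beside them. Its 6 genes summed to 91 reads (26.6 CPM) in replicate 1 and 123 reads (43.6 CPM) in replicate 2. The chromosome 14 cluster exceeded that sum 58.2-fold and 28.7-fold in replicates 1 and 2, and the Mcm7 cluster exceeded it 55.9-fold and 38.4-fold. Mir92-2 led the X chromosome genes with 50 and 95 reads, followed by Mir20b with 22 and 21. Mir363 had 9 and 5 reads, Mir106a 8 and 2, Mir18b 2 and 0, and Mir19b-2 none. The counts of Mir92-2 and Mir19b-2 leave out reads confined to the stretches shared with Mir92-1 and Mir19b-1. The sum of the X chromosome genes and the fold values against it are therefore uncertain.

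The mature sequence of Mir106a differs from that of Mir17 by U10A alone.
miR-17-5p: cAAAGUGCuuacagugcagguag
miR-106a-5p: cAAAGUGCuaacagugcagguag
Mir17 had 2340 and 1442 reads, and Mir106a had 8 and 2.

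Among all annotated microRNA genes with one of the 4 seeds, the members held most of the reads in the miR-17 and miR-18 groups but not in the miR-92 group. In the miR-17 seed group the 4 members took 99.7% of reads in each library, and Mir20b and Mir106a took the rest, with none for the seventh gene, Mir6383. In the miR-92 seed group Mir92-1 and Mir25 took 5.16% of the reads of 7 genes in replicate 1 and 3.89% in replicate 2. Reads confined to the 22 bases shared by Mir92-1 and Mir92-2 went to no gene, so these shares are uncertain. Most assigned reads of the group came from Mir92b (chr3:89227116-89227198), which lies outside other annotated genes. It is known for a role in intermediate progenitors of mouse cortex.
miR-92b-3p: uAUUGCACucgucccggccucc
It differs from miR-92a-3p by U10C and G21C over 21 bases. Mir92b had 21326 reads (6232 CPM) in replicate 1 and 38174 reads (13535 CPM) in replicate 2, and ranked 22nd of 2202 genes. Mir32 had 67 and 45 reads, and Mir367 had none.

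**Figure D5:**
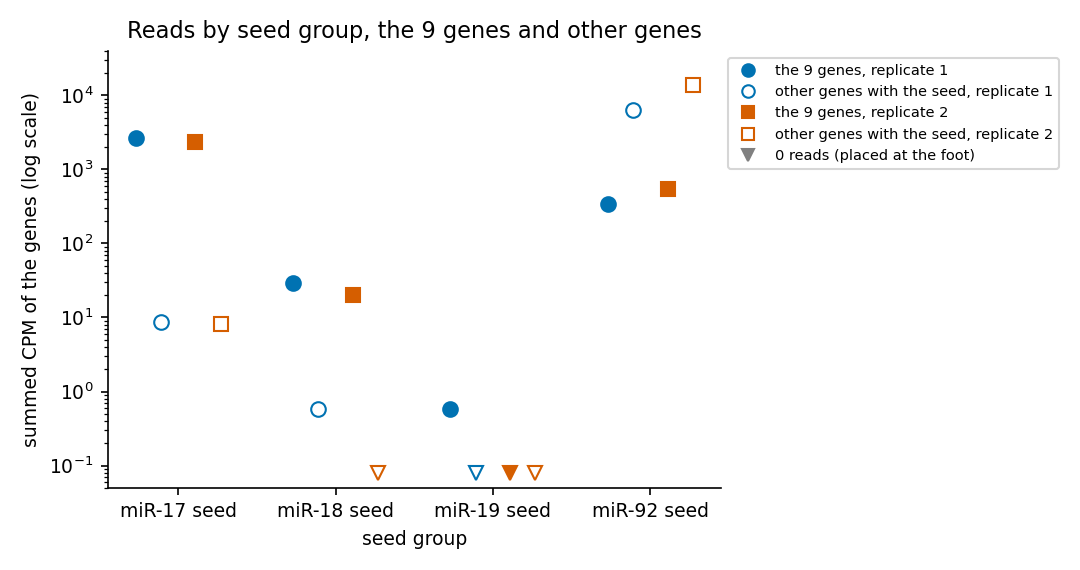
Summed CPM by seed group on a log axis, with filled symbols for the 9 genes and open symbols for all other annotated genes with the same seed, replicate 1 to the left of replicate 2. The 9 genes hold nearly all of the miR-17 group (2663 and 2355 CPM). Other genes, led by Mir92b, hold most assigned reads of the miR-92 group. Reads confined to the stretch that Mir92-1 and Mir92-2 share are counted for no gene.

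For Mir93, Mir17, Mir92-1, Mir106b and Mir25, the genes closest in level were found by the distance between log2 CPM values over the 2 libraries. Mir337 (1246 and 1193 CPM) and Mir181d (1456 and 1342 CPM) were nearest to Mir93, at distances of 0.11 and 0.18. Mir532 and Mir375 were nearest to Mir17 (0.11 and 0.17), Mir1224 and Mir7080 to Mir92-1 (0.063 and 0.27), and Mir301 and Mir7240 to Mir25 (0.025 and 0.13). The nearest genes to Mir106b, Mir1306 and Mir339, lay at larger distances of 0.47 and 0.50. With 2 libraries this is a likeness in level alone.

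Some members are known to be abundant in blood cells, so their levels were set beside the marker genes. The 3 red blood cell genes were all detected, with Mir451a, the main microRNA of red cells, at 21.6 CPM in replicate 1 and 33.3 CPM in replicate 2. Mir25 had 33.6 and 59.6 CPM and Mir93 had 1346 and 1218 CPM in replicates 1 and 2. The 6 leukocyte and microglia genes, all detected, summed to 5207 and 4484 CPM, led by Mir342. The 4 detected genes of the miR-302 cluster, which stood for embryonic stem cells, were lower in replicate 1, with 229 CPM against 544 CPM for the list of 10 genes measured and 5 of those genes at 0. The 5 choroid plexus and ependyma genes, all detected, summed to 3416 CPM in replicate 1 and 1638 CPM in replicate 2. Mir204, Mir34b and Mir34c were higher in replicate 1, and Mir449a (31.9 and 49.3 CPM) was lower. Mir211 was nearly equal (73.3 and 76.2 CPM), with a TMM-scaled log2 ratio of 0.043 (-0.23 to 0.31). The 3 endothelial and mural genes, all detected, summed to 21670 and 13157 CPM. The mural genes Mir143 (12791 and 5473 CPM) and Mir145a (1009 and 219.8 CPM) made up most of that gap, beside 7871 and 7464 CPM for the endothelial gene Mir126a. The part of these cell types in the levels of the 9 members was not tested.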

How the data were processed

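Each of 2 libraries came with raw counts of reads at each microRNA gene, as deposited, in a column that ignores strand and a column for each strand. Assembly mm10 and GENCODE M21 are given per the text notes deposited with the libraries. The sources used here give no aligner, counting tool or trimming. Rows that name no gene held 64.8% and 67.0% of reads in replicates 1 and 2 and entered neither library sizes nor tests. All 2202 gene IDs matched M21. The members had 0 reads on the opposite strand.

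The column on the gene's strand was used. CPM took assigned reads as the library size. Detection took a minimum of 10 reads in each library. Library sizes were scaled by TMM (edgeR 4.0.16, R 4.3.3). The 2 counts of each detected gene were compared by an exact binomial test (SciPy 1.17.1), adjusted over 389 genes with a threshold of 0.05. The test was also run on simulated counts that held counting error only. That run cannot show how the test behaves under further spread between libraries. A single group leaves a quasi-likelihood test without a contrast. The edgeR exact test used a common dispersion from both libraries. Counts hold no molecular identifiers, so intervals cover counting error only. Alternatives were DESeq2 1.42.0 size factors, library totals, other minimum counts, the column without strand, leaving out each library and leaving out members with shared sequence. Genes sharing 20 bases with a microRNA gene elsewhere, on either strand, were called shared. Genes named were the members, the X chromosome paralogues, every gene with a member's seed, the nearest genes in level and the marker lists. The members and lists were chosen with earlier results of these data known.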

Additional observations from a re-analysis of the deposited data

How the results depend on the processing

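With all reads of the tables as the library size, the Mcm7 cluster took 0.0538% and the chromosome 14 cluster 0.0479%, in place of 0.158% and 0.140% of assigned reads, since the denominator is larger by construction. With Mir19b-1 and Mir92-1 left out for their shared sequence, the chromosome 14 cluster took 0.100%. The log2 ratio of the Mcm7 cluster to it was then 0.70 in place of 0.18. The miR-17 seed held 97.2% of the members' reads in place of 84.1%, and the miR-92 seed 1.84% in place of 15.0%. Leaving those genes out could only move each of these values in this direction. With the edgeR exact test in place of the binomial test, 2 genes in place of 263 and 0 members in place of 7 passed. The log2 ratios of the 7 members kept their sign, which was fixed beforehand, since they come from the same counts and library sizes. Between the single libraries, the Mcm7 share ranged from 0.149% to 0.167%, the chromosome 14 share from 0.125% to 0.155%, their log2 ratio from -0.058 to 0.42, the miR-17 seed share from 80.5% to 87.8%, the miR-18 seed share from 0.691% to 0.973%, the miR-19 seed share from 0% to 0.0193% and the miR-92 seed share from 11.2% to 18.8%. All 7 members kept their direction and call under library totals, DESeq2 size factors, at least 1 read in either library and the column without strand. Of all genes tested, 261 of 389, 271 of 389, 282 of 756 and 244 of 364 passed in these settings, in that order. The members have the same reads in the column without strand, so only the library size changed there. With at least 100 reads, 6 members were tested and kept theirs. In that setting 208 of 241 genes passed, so most genes pass this test. The number of members with shared sequence was 2 of 9 at 18, 20 and 22 bases, against 51.5%, 49.4% and 46.9% of all genes. No paired analysis was possible because the design holds a single group. Precision is limited by 2 libraries, and by counts of 0 or 1 read for Mir19a and Mir19b-1.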
